A study of Eptesicus fuscus and Canis lupus familiaris and Equus caballus with 4 samples.

Results

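The dog testis list held 8 miRNA hairpin candidates on the unplaced scaffold Un_JH373668, a stretch of the dog genome assembly that has no chromosome assigned. They were taken by that scaffold name, out of 252 dog candidates and 1453 candidates in the 3 lists of the series, which cover dog, horse and a bat (Eptesicus fuscus). The scaffold was chosen by its read counts in the dog list, because Candidate_353 and Candidate_357 on it are among the most read dog candidates, so its reads are given as a description. Each list came from the small RNA of 1 snap-frozen adult testis sample, read as 50 bp single ends. A second bat individual was not analysed here. There were no replicates, so no test was run, and intervals cover counting error only.

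A miRNA is cut from a hairpin, a transcript that folds back on itself. The enzymes Drosha and Dicer excise a duplex of both arms with short 3′ overhangs, and usually 1 arm is kept in the silencing complex as the mature miRNA while the other is largely lost. The seed, bases 2 to 8 of the mature miRNA, does most of the target recognition. Mammals are known to carry X-linked clusters of related miRNA genes that are read in testis and change quickly between species. No miRNA name table was used, so the candidates keep their list numbers.

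The mature sequences are shown first because the arms, the copies and the comparison with the horse all turn on them. Each is written 5′ to 3′ as DNA, with the seed in capitals, in the order of the hairpins along the scaffold.
Candidate_355: gATTAGCAtctgcctgggccgagt
Candidate_358: tGATTAGTtcctgcctggataca
Candidate_359: tATTCAGGgaggtgctaatgacg
Candidate_356: tGATTAGCatctgcctgggcaga
Candidate_353: tAACGAGTacctttctggattgagt
Candidate_357: tATCCAGAaaggcgctcgttatg
Candidate_354: tAATTGGCgcccctctgggtagg
Candidate_360: aTTAGCGCctgactgagtggggtc
The 8 seeds were all different. Candidate_355 and Candidate_356 carried the same run of bases, but the listed 5′ end of Candidate_355 lay 1 base further in, so that their seeds are the same letters shifted by 1 position. The mature sequences were 23 to 25 bases long, and 6 of the 8 began with U, against 66.3% of all dog candidates.

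The hairpins show how the arms face each other. One hairpin is given per locus, and the capitals mark every mature sequence listed there. Coordinates are on CanFam3.1, the dog build named in the submitters' processing notes, and all hairpins lie on the plus strand. Gene annotation of that build was not used here.
Candidate_355, chrUn_JH373668:949-1031: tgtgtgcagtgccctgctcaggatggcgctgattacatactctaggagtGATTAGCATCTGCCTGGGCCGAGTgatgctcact
Candidate_358 with Candidate_359, chrUn_JH373668:7381-7501: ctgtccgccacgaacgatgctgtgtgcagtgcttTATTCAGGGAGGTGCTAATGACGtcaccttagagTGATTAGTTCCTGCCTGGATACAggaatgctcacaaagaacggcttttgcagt
Candidate_356, chrUn_JH373668:10322-10462: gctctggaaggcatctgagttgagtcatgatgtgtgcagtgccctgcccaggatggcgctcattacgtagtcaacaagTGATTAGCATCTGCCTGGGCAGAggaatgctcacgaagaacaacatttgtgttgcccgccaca
Candidate_353 with Candidate_357, chrUn_JH373668:12966-13100: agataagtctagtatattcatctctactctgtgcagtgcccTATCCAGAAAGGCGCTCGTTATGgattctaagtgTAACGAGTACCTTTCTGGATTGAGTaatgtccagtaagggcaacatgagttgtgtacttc
Candidate_354, chrUn_JH373668:21238-21378: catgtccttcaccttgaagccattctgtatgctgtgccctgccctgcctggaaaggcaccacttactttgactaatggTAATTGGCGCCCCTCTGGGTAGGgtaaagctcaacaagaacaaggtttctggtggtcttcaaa
Candidate_360, chrUn_JH373668:23646-23788: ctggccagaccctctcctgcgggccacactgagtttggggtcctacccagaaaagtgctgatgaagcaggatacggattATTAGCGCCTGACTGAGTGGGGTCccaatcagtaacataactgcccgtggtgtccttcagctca
Candidates whose hairpins overlapped on the same strand were taken as 1 locus, which gave 6 loci within 22840 bases. The gaps between neighbouring loci were 6349, 2820, 2503, 8135 and 2267 bases, from the lowest coordinate up.

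Reads on the scaffold were concentrated at locus 4. Candidate_353 had 5968 reads and Candidate_357, on the other arm of the same hairpin, had 985. Together they held 78.3% of the 8883 scaffold reads, and Candidate_353 alone held 67.2% (exact Clopper-Pearson 95% interval 66.2 to 68.2). At locus 5, Candidate_354 had 540 reads. At locus 2, Candidate_358 had 477 reads and Candidate_359 had 365.

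The other 3 candidates were lower. Candidate_355 at locus 1 had 294 reads, Candidate_360 at locus 6 had 144 and Candidate_356 at locus 3 had 110. The highest count was thus 54.3 times the lowest, and the neighbours of locus 4 on the scaffold, Candidate_356 and Candidate_354, had 110 and 540 reads. By reads the candidates ranked 2, 8, 13, 14, 16, 18, 33 and 39 among the 252 dog candidates.

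**Figure D1:**
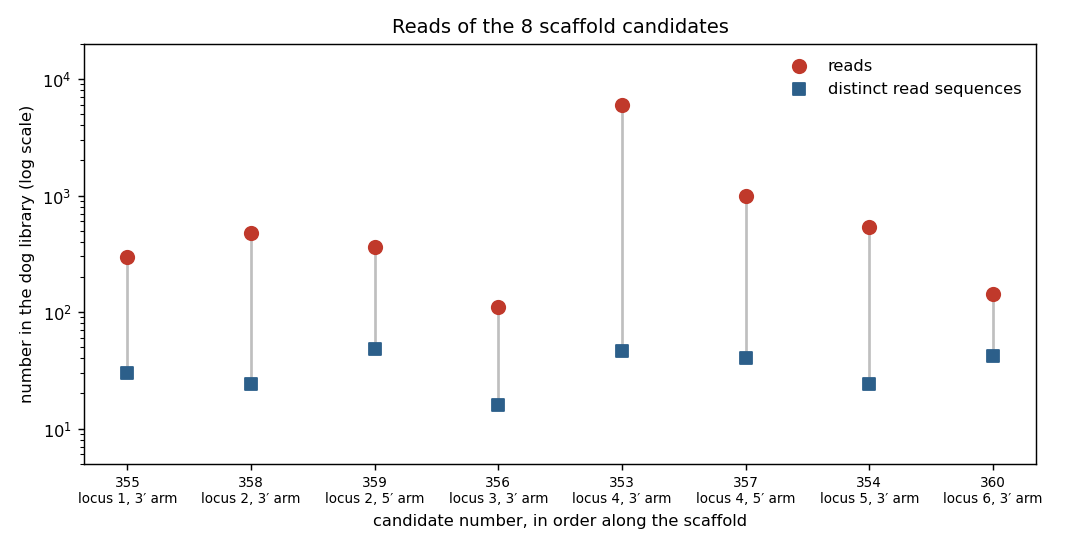
Reads (red circles) and distinct read sequences (blue squares) of each scaffold candidate in the dog library, on a log axis, in order along the scaffold. Candidate_353 stands at 5968 reads and the other 7 lie between 110 and 985, while distinct sequences run only from 16 to 48.

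The number of distinct read sequences at a candidate counts how many different sequences its reads had. It was far more even than the reads. Candidate_359 had 48 distinct sequences, Candidate_353 had 46, Candidate_360 had 42 and Candidate_357 had 40. Candidate_355 had 30, Candidate_354 and Candidate_358 had 24 each, and Candidate_356 had 16.

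Reads per distinct sequence therefore differed widely. Candidate_353 had 129.7 reads for each distinct sequence and Candidate_360 had 3.43. The median over the 8 was 14.8, against 1.44 over all dog candidates. All 8 were predicted by all 5 models of the prediction program, against 50.0% of the dog list, and all 8 had at least 10 reads, against 38.9%. The scaffold was chosen by its reads, so high counts follow in part from the choice. They were not particular to it. In a related cluster on dog chromosome X, reads ran from 1 at Candidate_339 to 1546 at Candidate_318, which had 27 distinct sequences.

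The scaffold held 14.0% of the reads at dog candidates (13.7 to 14.3) and 15.4% of their distinct sequences. This share depended on the candidate with most reads in the list, Candidate_165 with 37280 reads. Without it the scaffold held 34.0% of the rest. Against all reads in the authors' analysis, which lay between 507211 and 512667 as bounded from the deposited fractions, the scaffold held 1.73 to 1.75%.

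**Figure D2:**
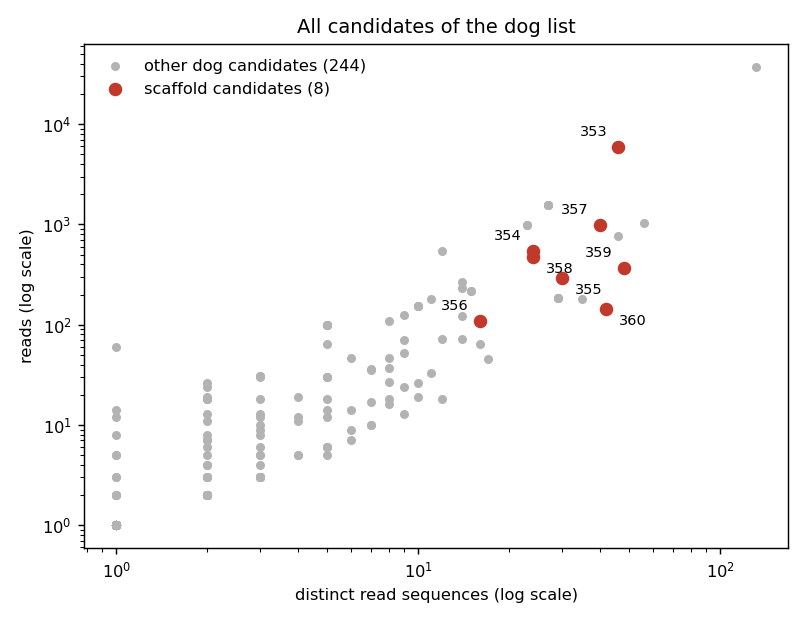
Reads against distinct read sequences for the 252 dog candidates, both axes on log scales, with the 8 scaffold candidates in red and labelled by number. The scaffold candidates lie in the upper right, at 16 or more distinct sequences, where the dog median is 2 distinct sequences and 3 reads.

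Listed reads fell mostly on the 3′ arm. Of the 8 candidates, 6 had the mature sequence on the 3′ arm, against 49.2% of dog candidates, and 2 had it on the 5′ arm. The arms were the same whether taken from the hairpin midpoint or from the predicted structure. At 4 loci only the 3′ arm was listed.

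Both arms were listed at 2 of the 6 loci, against 7.76% of the 232 dog loci. This was also seen at most of the 10 loci of the related cluster on dog chromosome X, described below. Among those pairs were Candidate_321 with Candidate_302, Candidate_340 with Candidate_318, Candidate_323 with Candidate_327 and Candidate_303 with Candidate_332. Candidate_316 with Candidate_338 was also such a pair, as was Candidate_339, with 1 read, with Candidate_336. Another was Candidate_315 with Candidate_304, which had the same mature sequences and reads as locus 2. The X loci of Candidate_337, Candidate_310 and Candidate_311 listed the 3′ arm only. At locus 4 the 3′ arm held 85.8% of the reads of the 2 arms (85.0 to 86.6), that is 6.06 times the reads of the 5′ arm. At locus 2 it held 56.7% (53.2 to 60.03), or 1.31 times the 5′ arm. These intervals cover counting error in 1 library only, and whether arm use differs between the loci was not tested. The reads of locus 2 cannot be assigned to the scaffold alone.

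The arms differed less in distinct sequences at locus 4, with 46 on the 3′ arm and 40 on the 5′ arm. At locus 2 the order was opposite to that of the reads, with 24 distinct sequences on the 3′ arm and 48 on the 5′ arm. The 5′ arm of locus 2 thus had fewer reads in more forms.

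The listed arms fitted together as duplexes in the structure predicted by RNAfold. At locus 2, 18 base pairs joined Candidate_358 and Candidate_359, and each arm ended in a 3′ overhang of 2 bases. At locus 4, 19 base pairs joined Candidate_353 and Candidate_357, with an overhang of 2 bases on the 5′ arm and 4 on the 3′ arm. Candidate_353 is 25 bases long, and no mature sequence in the 3 lists is longer. At both loci 11 bases separated the arms at the loop.

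Predicted stability was given by the folding energy of each hairpin. The folding energy per base ranged from -0.424 kcal/mol for Candidate_359 to -0.341 for Candidate_353, the most read. Candidate_358, whose 121-base hairpin overlaps the 91-base hairpin of Candidate_359 at locus 2, had -0.342. Listed hairpins of the same locus thus differed, and the part of hairpin length in these values was not tested. The median was -0.356 over the 8 and -0.387 over all dog candidates, where a lower value is more stable. GC content had a median of 49.6% in the 8 hairpins and 57.7% in the dog list, and its part in the difference was not tested. The mature sequence was paired at 78.3 to 91.3% of its bases, highest at Candidate_357 and 88.0% at Candidate_353.

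Parts of the sequence recurred in most of the scaffold hairpins, but near-copies were few. Candidate_355 and Candidate_356 were the only pair at different loci that aligned at 80% identity or more over at least 50 bases, with 87.8% over 82 bases. Their alignment had 10 differences. Counted from the 5′ end of the hairpin of Candidate_355, 7 of these lay before its mature sequence (T18C, G31C, A37G, C40G, T43A, G45C and G46A), 2 within it (C69A and T73G) and 1 just after it (G74A). None fell in the seed.

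Candidate_355 had 294 reads and Candidate_356 had 110, so the pair most alike in sequence differed 2.67 times in listed reads. The 294 reads were also listed on chromosome X, at Candidate_337, whereas the mature sequence of Candidate_356 was listed nowhere else. Other pairs were more distant. Candidate_356 aligned with Candidate_358 at 72.3% over 101 bases, with Candidate_359 at 73.03% over 89 and with Candidate_354 at 66.0% over 100. With the most read hairpin, Candidate_353, it aligned at 84.8% over 33 bases only. Candidate_360 aligned with no other hairpin of the scaffold.

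Over the whole hairpin, the 26 pairs at different loci had a median identity of 52.6% (range 41.8 to 65.2), against 49.6% over the 29628 pairs of other dog candidates. The 6 mature sequences of the 3′ arm had a median identity of 56.5% in pairs, from 50.0% to 84.0%. The same value for mature sequences of other dog candidates was not computed, so this median cannot be read as likeness. The whole-hairpin values compare hairpins of unequal length, from 83 to 143 bases.

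One shared stretch lay before the 5′ arm. The word TGTGCAGTGC stood in the hairpins at loci 1, 2, 3 and 4, found as 3 overlapping words of 8 bases shared by at least 4 loci. At loci 2 and 4, where the 5′ arm was listed, exactly 2 bases separated it from the mature sequence of that arm. On either strand the word was in 6.75% of dog hairpins, 5.92% of horse hairpins and 1.18% of bat hairpins. The 17 dog hairpins that held it were 6 of the scaffold and 11 of chromosome X, and all 26 horse hairpins that held it were on chromosome X.

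Another was in the 3′ arm. The letters ATTAG were in 4 of the 8 mature sequences, those of Candidate_355, Candidate_356, Candidate_358 and Candidate_360. They were in 5.56% of the mature sequences of all dog candidates, the scaffold candidates included. These letters did not come from the rule of 8-base words, so the 2 shares are a description only. Of the 14 dog candidates with these letters, 9 were on chromosome X, but they were not 9 different sequences. Candidate_337, Candidate_304, Candidate_310, Candidate_311 and Candidate_336 had mature sequences of scaffold candidates. Candidate_318, Candidate_327, Candidate_332 and Candidate_338 all listed the same other sequence. The word CTGCCTGG was found at loci 1, 2, 3 and 5 and in 5.16% of dog hairpins. It stood in the 3′ arm at the first 3 of these loci and on the 5′ side of the hairpin of Candidate_354, opposite its mature sequence.

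Of the 8 scaffold mature sequences, 4 were also listed on dog chromosome X, against 19.8% of dog candidates whose mature sequence is listed on another chromosome or scaffold too. They were found within a cluster of 17 candidates at 10 loci on the minus strand, chrX:114675824-114689915. Candidate_355 had the mature sequence of Candidate_337, Candidate_358 that of Candidate_304 and Candidate_359 that of Candidate_315. Candidate_360 had that of Candidate_310, Candidate_311 and Candidate_336. In all 6 of these X candidates the reads and the distinct sequences were the same as at the scaffold candidate.

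The same reads were therefore listed at both places, and the counts cannot tell them apart. These 4 scaffold candidates had 1280 reads. The other 4, which are Candidate_353, Candidate_357, Candidate_354 and Candidate_356, had 7603 reads, or 85.6% of the scaffold reads (84.8 to 86.3), and their mature sequences were listed nowhere else. With only these, the scaffold held 11.99% of the reads at dog candidates (11.7 to 12.2). The dog total was left unchanged here, so a mature sequence listed at several candidates still counted in it more than once. Scaffold and X cluster together held 14 distinct mature sequences and 10680 reads when each was counted once.

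The copies were of unequal closeness. The hairpin of Candidate_355 was identical to that of Candidate_337 over all 83 bases, and that of Candidate_359 to that of Candidate_315 over all 91. The hairpin of Candidate_358 differed from that of Candidate_304 at 1 of 121 bases, C11T from the 5′ end. Candidate_360 and Candidate_336 differed at 9 of 143 bases, none of them in the mature sequence. The X hairpin is shown for comparison with Candidate_360 above, with the mature sequence in capitals.
Candidate_336, chrX:114688835-114688977, minus strand: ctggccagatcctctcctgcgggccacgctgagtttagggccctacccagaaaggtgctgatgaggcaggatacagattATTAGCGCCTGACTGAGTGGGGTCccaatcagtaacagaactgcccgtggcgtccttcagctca
Counted from the 5′ end of Candidate_360, the differences were C10T, A28G, G37A, T41C, A54G, A65G, G75A, T117G and T130C.

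One of these differences, A54G, fell in another listed mature sequence. Candidate_339, on the 5′ arm of that X hairpin, rested on 1 read. Its mature sequence matched the hairpin of Candidate_360 with 1 mismatch, which is A54G. It lies in full in its own X hairpin, as every listed mature sequence of the 252 dog candidates does. Candidate_310 also differed from Candidate_360 by A54G, and the read itself was not seen. The place that the read came from was therefore not settled. Candidate_310 differed from Candidate_360 at 7 of 112 aligned bases and Candidate_311 at 13 of 119, with the identical mature sequence in each.

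The shared hairpins were spaced differently in the 2 places. From Candidate_355 to Candidate_358 the starts were 6432 bases apart on the scaffold, and 2651 bases apart for the matching X hairpins. From Candidate_358 to Candidate_360 they were 16265 bases apart, against 1474, 7662 and 10360 for the 3 X hairpins that match Candidate_360. By rising coordinate the order was the same at both places, but the hairpins lay on the plus strand of the scaffold and on the minus strand of X. Read along the hairpin strand, the order was therefore reversed. Whether the scaffold and the X cluster are separate stretches of the genome or parts of 1 array in the assembly was not tested.

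**Figure D3:**
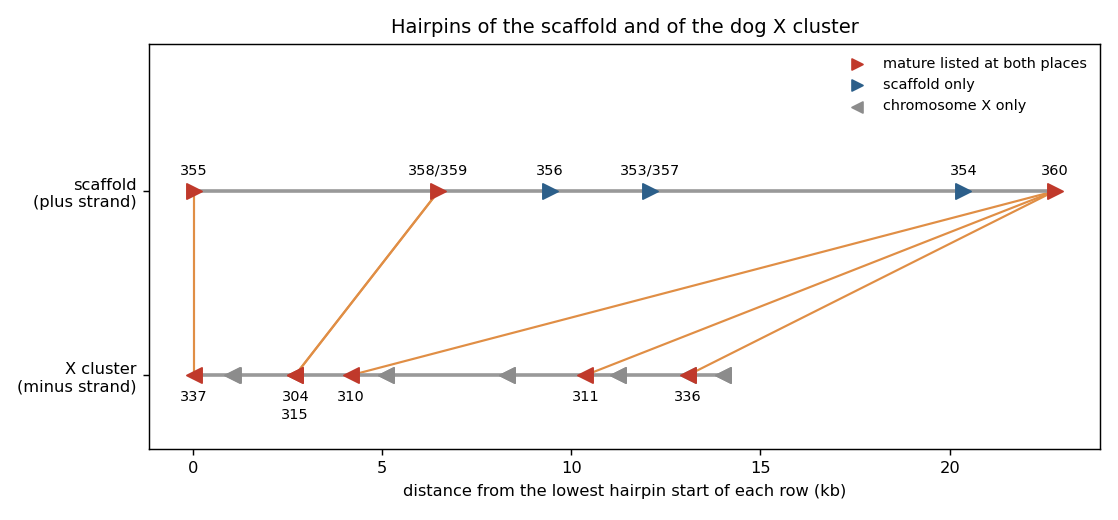
Positions of the 6 scaffold loci and of the dog X cluster, each row in kb from its lowest hairpin start, with arrowheads for the strand and lines joining hairpins that list an identical mature sequence. Loci 1, 2 and 6 (Candidate_355, Candidate_358 with Candidate_359, and Candidate_360) have X hairpins with an identical mature sequence. Candidate_356, Candidate_353 with Candidate_357, and Candidate_354 have no X hairpin with an identical mature sequence.

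Hairpins similar to the scaffold candidates were on chromosome X throughout the dog list. A blastn search, a local alignment search, at an E-value of 0.001 found 21 dog hairpins outside the scaffold, all on X, where 14.3% of the dog list lay, and 17 of them in the cluster above. Each of the 8 candidates had at least 1 such hairpin, against 39.3% of dog candidates with a similar hairpin on another chromosome or scaffold. By score, the best alignment of Candidate_353, the most read candidate, was 89.3% over 28 bases, with Candidate_307 at chrX:114717056-114717200 and equally with Candidate_334. It also aligned over 83 bases, at 69.9%, with Candidate_318 and Candidate_340 of the X cluster. Candidate_354 aligned best with Candidate_302 and Candidate_321, at 89.3% over 28 bases with each. Candidate_356 aligned best with Candidate_337 of the X cluster, at 87.8% over 82 bases. Their mature sequences had no mismatch over 18 bases when shifted by 1 base.

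The horse list held hairpins similar to those of the scaffold. Of the 8 candidates, 7 had a similar hairpin in the horse list, against 21.0% of dog candidates. Those 43 horse hairpins were all on chromosome X, where 13.4% of the horse list lay. Candidate_360 had none. The closest were Candidate_619 and Candidate_639, which aligned equally, with Candidate_356 at 80.9% over 110 bases and with Candidate_354 at 74.1% over 135. Candidate_619 is shown.
Horse Candidate_619, chrX:115870758-115870898, minus strand, with its 183-read mature sequence in capitals: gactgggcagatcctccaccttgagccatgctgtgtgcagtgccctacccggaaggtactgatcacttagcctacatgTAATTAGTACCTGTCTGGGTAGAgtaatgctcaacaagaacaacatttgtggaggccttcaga
This position is as the list gives it (build not given in the sources used here). Candidate_353 aligned best, at 71.6% over 95 bases, with horse Candidate_607, Candidate_619 and Candidate_639 alike.

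A mature sequence counted as a match when at most 2 of 18 bases differed and the starts lay at most 2 bases apart. None of the 8 had a match in the horse list, against 4.37% of dog candidates. At a share this low, finding none among 8 does not set the scaffold apart from the list. None had the seed of a horse or bat candidate, and the share of dog candidates with such a seed was not computed. Allowing 3 mismatches, Candidate_353 and Candidate_358 matched the horse mature sequence printed above, which was listed with 183 reads at 5 hairpins. Candidate_358 then also matched horse Candidate_654, with 1104 reads. The background of matches at 3 mismatches was not computed.

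The bat list held more distant hairpins. Of the 8 candidates, 5 had a similar hairpin there, against 19.4% of dog candidates. None had a matching mature sequence, against 8.33%, a share so low that none among 8 does not set the scaffold apart. The 6 bat hairpins lay on contigs ALEH01144123.1 and ALEH01144127.1. The longest alignment, at 70.4% over 108 bases, joined Candidate_356 with 2 overlapping candidates on the minus strand of ALEH01144123.1. These were Candidate_868 at 4680 to 4820, with 22 reads, and Candidate_870 at 4683 to 4823, with 506 reads.

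**Figure D4:**
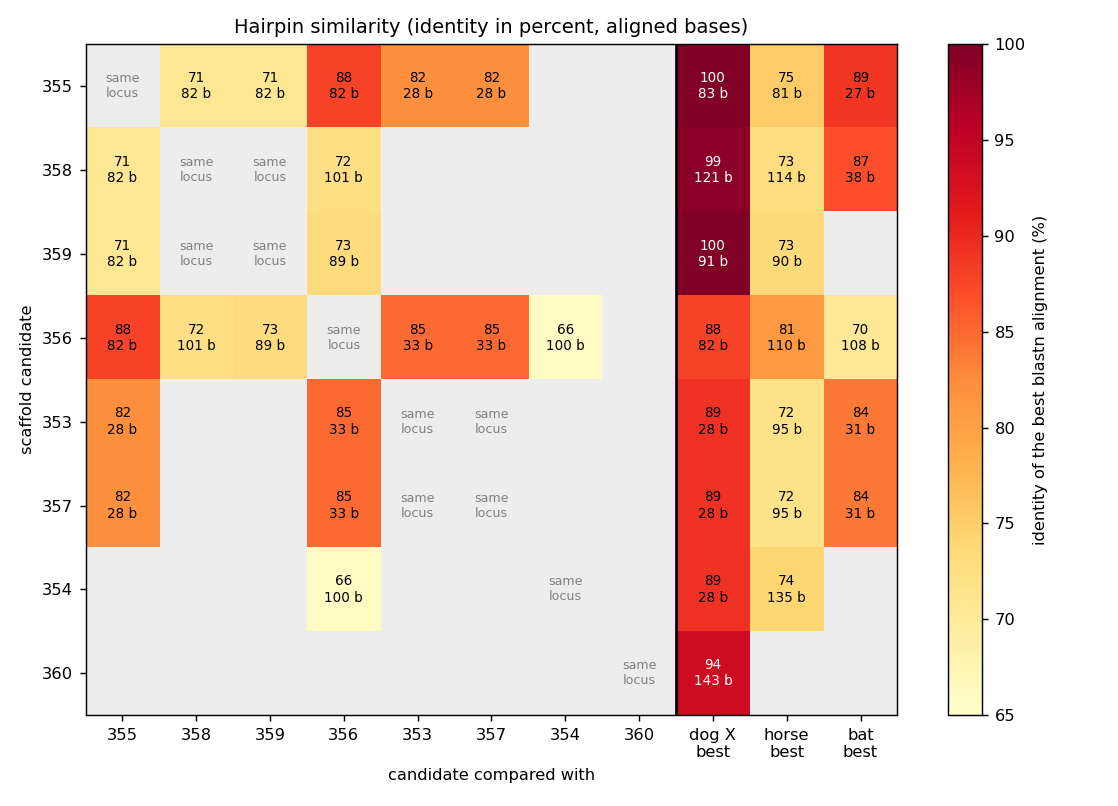
Identity in percent and aligned bases of the best blastn alignment between scaffold hairpins at different loci (left of the line) and with the best hairpin on dog X, in the horse list and in the bat list (right of the line), with grey for no alignment at an E-value of 0.001. Candidate_355, Candidate_358, Candidate_359 and Candidate_360 align over their full length with a dog X hairpin, while the best-scoring alignment of Candidate_353, Candidate_357 and Candidate_354 there covers 28 bases, and their best in the horse list covers 95, 95 and 135 bases.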

How the data were processed

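Small RNA of dog, horse and bat testis was sequenced, per the labels' protocols, and 1 library per species was analysed here. The authors predicted hairpin candidates with miRanalyzer, per the deposited readme. The deposited counts are whole numbers of distinct sequences and of reads per candidate, not normalized. The deposited score says how many of the 5 prediction models called a candidate, 4 or 5 here. The deposited fraction sets a candidate's reads against the total the authors analysed, to 3 decimals. Positions were checked to be 1-based. Details of trimming, mapping and removal of known miRNAs: not given in the sources used here.

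Hairpins were aligned with blastn 2.17.0 (word size 7, E-value 0.001, per pair within the scaffold and over each whole list otherwise) and, over their full length, with Biopython 1.88. Structures came from RNAfold 2.7.2, and the rest from Python 3.11.15, scipy 1.17.1 and pandas 2.3.3. Matching, merging and folding steps were tested on simulated sequences. Clustered X loci lay within 10000 bases of another. All 8 candidates were named, and of others those with a matching mature sequence or similar hairpin. The members and rules were chosen with earlier results of these data known.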

Additional observations from a re-analysis of the deposited data

How the results depend on the processing

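Among the settings tried, the share of dog reads held by the scaffold moved most. It was 14.0% as reported, 16.3% with each identical mature sequence once, 14.4% among candidates of all 5 models, 34.0% without the most read dog candidate and 1.73 to 1.75% of all reads in the authors' analysis. With only the members whose mature sequence is listed nowhere else, an alternative added after seeing the data, it was 11.99%. That value was taken over the unchanged dog total, in which repeated mature sequences counted more than once. Similar hairpin pairs numbered 1 at 80% identity over 50 bases, 0 at 90% identity, 5 at 70% identity and 3 at 80% over 30 bases. These are pairs of candidates, and overlapping candidates of 1 locus counted separately, so the pairs of loci are fewer in the last 2 counts. The median identity of pairs was 52.6% in global and 78.7% in local alignment. Pairs of other dog candidates had a global median of 49.6%, below that of the members, and a local median of 90%, above it. Local alignments can be short. Members with a match in the horse list numbered 0, and 2 at 3 mismatches. Elsewhere in the dog list they numbered 5 under each rule, though with identical seeds Candidate_354 took the place of Candidate_356. The number of loci, the arms, the summed reads and the folding energy moved by less than their limits. The planned comparison with RefSeq miRNAs was not run. No paired analysis was possible because 1 library per species was analysed here.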

Other observations

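Candidate_354 was the only member whose seed was found off the scaffold and off chromosome X. It shared the seed AATTGGC with Candidate_132 on chromosome 15, 1285317 to 1285441 on the plus strand, which had 6 reads of taattggcagagccaggattcaagc on the other arm. Their mature sequences did not match beyond the seed by the 18-base rule, and their hairpins did not align.

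The mature sequence of the most read X candidates of the dog cluster was not listed on the scaffold. Candidate_318, Candidate_327, Candidate_332 and Candidate_338 each listed 1546 reads of taattaggacctccctgagcggagt, and that sequence was not found in a scaffold hairpin at 3 mismatches or fewer. Their hairpins did align with scaffold hairpins, with that of Candidate_355 at 77.4 to 78.8% over 84 to 86 bases and with that of Candidate_356 at 72.6 to 77.3% over 84 to 88 bases.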
